A study of Mus musculus with 27 samples.

Results

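The genes described here are the nuclear-encoded genes of oxidative phosphorylation, as measured by RNA-seq in mouse embryonic fibroblasts (MEFs), primary fibroblast cultures grown from embryos. They were chosen by symbol alone, as the rows of the count table whose symbol begins with Nduf followed by a, b, c, s or v, with Uqcr, with Cox and a digit from 4 to 8, or with Atp5, together with *Sdha*, *Sdhb*, *Sdhc* and *Sdhd*. This gave 92 of the 37310 rows, after 1 row named as a pseudogene was left out. By complex, 41 were grouped with complex I, 4 with complex II, 8 with complex III, 21 with complex IV and 18 with complex V. These groups include some genes that encode no subunit. The study deleted the long noncoding RNA gene *Firre* from the X chromosome and compared the knockout (KO) with wild type. Its RNA-seq covers 4 groups of 3 libraries, namely male wild-type, male *Firre* KO, female wild-type and female *Firre* KO MEFs. The KO carries a deletion, obtained by recombination between loxP sites, of the whole *Firre* locus and its promoter. All MEFs were derived from single midgestation embryos without head, limbs or viscera and were used at low passage. The labels name no treatment for these groups. The labels do not say whether the 3 libraries of a group came from separate embryos, so p-values measure only the spread between these libraries, which may be technical.

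Oxidative phosphorylation takes place in the inner mitochondrial membrane. Complexes I (NADH dehydrogenase) and II (succinate dehydrogenase) pass electrons to ubiquinone, complex III (cytochrome bc1) passes them to cytochrome c, and complex IV (cytochrome c oxidase) hands them to oxygen, while complex V (ATP synthase) uses the resulting proton gradient to make ATP. Most subunits are encoded in the nucleus and imported, and a small core of complexes I, III, IV and V is encoded by mitochondrial DNA. In many nuclear OXPHOS genes the promoter is known to be bound by NRF1 and by the ETS factor GABP.

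Of the 92 genes, 81 encode subunits. The others are the complex I assembly factors *Ndufaf1* to *Ndufaf4* and genes that share the naming pattern but encode no subunit. Among the latter, *Cox4nb* encodes a component of the endoplasmic reticulum membrane complex and not of cytochrome c oxidase, *Cox7a2l* a factor that joins complexes III and IV into supercomplexes, and *Atp5l2* is a pseudogene. *Ndufa4* was counted with complex IV, where its protein resides. *Ndufb8* has 2 identifiers in the table. The authors deposited estimated counts, in which a read that fits several genes is divided between them, and the counts of 59 members were whole numbers in every library while those of 33 were fractional. For the latter, reads shared with processed pseudogenes may be divided imperfectly.

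The libraries held between 42986516 and 65454660 expected counts, and all 6 male libraries were deeper than all 6 female libraries. *Firre*, listed as 6720401G13Rik, had 239 to 307 expected counts in male and 90 to 129 in female wild-type libraries and 0 in all 6 KO libraries, which fits the labels. A list of 8 fibroblast genes summed to 9626 to 12840 CPM (counts scaled to the TMM effective library size) in every library. Markers of other cell types differed between the sexes. Macrophage markers summed to 7.89 to 14.5 CPM in male and 32.4 to 102 CPM in female libraries. At an adjusted p under 0.05 (edgeR) 6 of 7 were higher in female than in male wild-type MEFs, compared with 18.9% of all tested genes. In the same comparison 8 of 11 tested skeletal muscle markers were higher in female MEFs, although the summed level of the list ranged from 77.8 to 161 CPM in female and from 97.2 to 116 CPM in male wild-type libraries, most of it *Acta1*. The third replicate of male wild-type and that of male KO MEFs stood apart for the OXPHOS genes, with summed levels of 6720 and 6724 CPM against 7063 to 7195 CPM in the other 4 male libraries, and they had the highest summed level of 6 proliferation genes of their groups, 1296 and 1585 CPM.

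The OXPHOS genes were among the abundant transcripts of these cells. Of the 92 members, 85 had enough counts to be tested, and their median level over the 12 libraries was 54.7 CPM, compared with 15.6 CPM for all 15387 tested genes. Per length of transcript, as approximate TPM (counts per merged exon length, scaled to the library), the median was 118 TPM, compared with 11.8 TPM. The members also varied little between libraries. Their median coefficient of variation was 7.70%, compared with 13.1% for all tested genes and 8.48% for the 3144 tested genes of like abundance, defined as those between the lower and upper quartiles of the members' mean log2 CPM (5.13 to 6.66). In the wild-type libraries the 92 genes together took 0.766% of the counts in female and 0.694% in male MEFs.

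**Figure D1:**
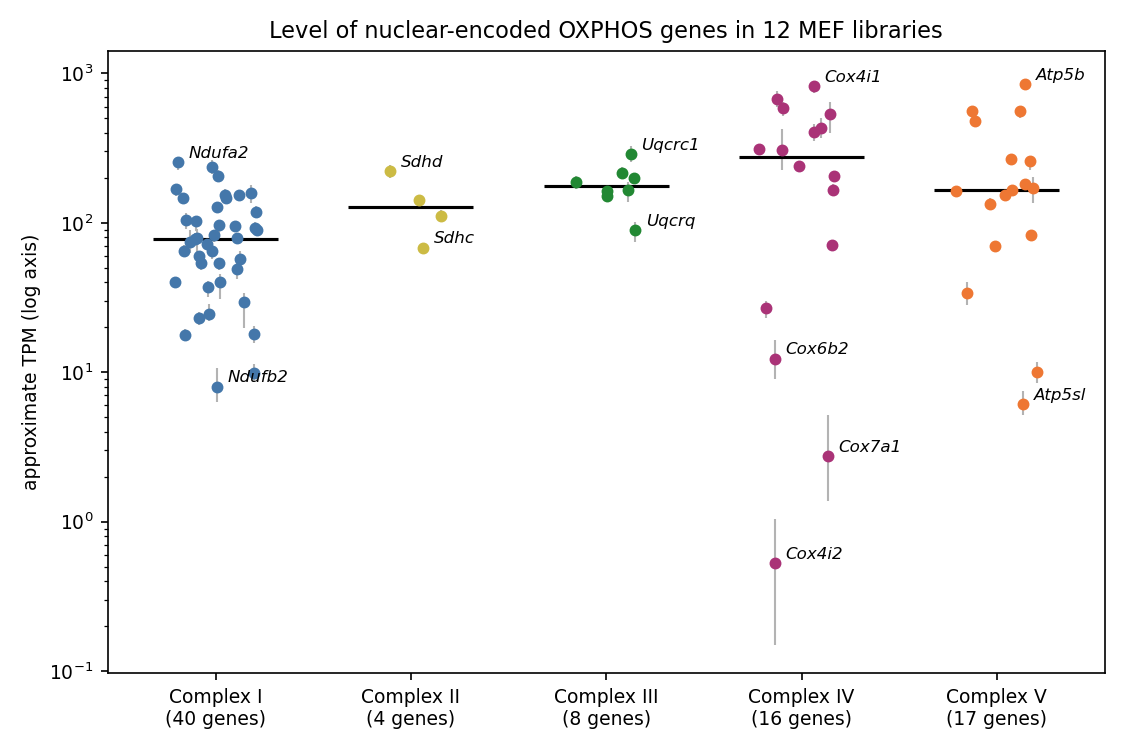
Approximate TPM (log axis) of the 85 tested members by complex; each point is the mean of 12 libraries, the grey line spans the lowest to the highest library and the black bar is the median of the complex. By merged exon length complex IV has the highest median (274 TPM) and complex I the lowest (78.1 TPM), and *Cox4i2*, at 0.526 TPM, lies far below the other genes.

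Per length, complex IV stood highest with a median of 274 TPM over its 16 tested genes, followed by complex III (177), complex V (165), complex II (127) and complex I (78.1 TPM over 40 genes). With the longest annotated transcript as the length, the medians were 243 TPM for complex IV, 237 for complex V, 185 for complex III, 168 for complex II and 83.6 for complex I, so the order of complexes III and V depends on the length used and complexes IV and V lie close together. The most abundant member was *Atp5b*, the catalytic beta subunit of ATP synthase, at 844 TPM with a range over libraries of 769 to 916 TPM. It lies on chromosome 10 from 127520329 to 127527447 (mm9, plus strand). *Cox4i1*, a nuclear subunit of cytochrome c oxidase on chromosome 8 from 123192190 to 123198109, followed at 817 TPM. These ranges over libraries overlap, so the order of the 2 is not resolved by the merged exon lengths, whereas with the longest annotated transcript as the length *Atp5b* reached 1588 TPM and *Cox4i1* 695 TPM. *Ndufa2* (256 TPM) was the highest of complex I, *Sdhd* (222 TPM) of complex II and *Uqcrc1* (288 TPM) of complex III. The lowest tested members of each complex were *Ndufb2* (8.01 TPM), *Sdhc* (68.3 TPM), *Uqcrq* (89.9 TPM), *Cox4i2* (0.526 TPM) and *Atp5sl* (6.10 TPM). For *Ndufb2*, an accessory subunit of complex I, the annotated exons merge to 5628 bases, so its level per length is lowered by the annotation as well as by its 16 CPM.

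Several complex IV subunits exist as paired isoforms, of which one is general and the other restricted to heart and skeletal muscle, lung or testis. The MEFs carried the general form in every case. *Cox4i1* stood at 817 TPM against 0.526 TPM for *Cox4i2*, the form known from lung. *Cox6a1* was at 405 TPM and the muscle form *Cox6a2* at 0.519 TPM. *Cox7a2* was at 241 TPM and the muscle form *Cox7a1* at 2.76 TPM, while *Cox7a2l* was at 313 TPM. *Cox8a* was at 538 TPM and the muscle form *Cox8b* at 0.285 TPM. Of the testis forms, *Cox6b2* was at 12.3 TPM beside 678 TPM for *Cox6b1* and *Cox7b2* at 0.0427 TPM beside 207 TPM for *Cox7b*. *Cox8c* had 0 counts in all 12 libraries, which allows a level of up to 0.0698 CPM in the shallowest of them. *Ndufa4* was at 587 TPM and its relative *Ndufa4l2*, a gene known for its induction by hypoxia, at 0.227 TPM. The 7 members with too few counts to test were *Cox6a2*, *Cox7b2*, *Cox8b*, *Cox8c*, *Ndufa4l2*, *Atp5l2* and the second *Ndufb8* identifier, and none of them exceeded 0.301 CPM in any library.

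Promoter windows of RefSeq (GRCm38.p6, 250 bases before to 50 after the annotated start) were found for 74 of the 91 member symbols, 71 by symbol and 3 by synonym, as 80 windows. The bases before the start are shown for the pair of genes with the largest KO differences among the abundant members, *Cox5b* and *Cox8a*, and for a complex II and a complex I gene that differed between the sexes, *Sdhd* and *Ndufa11*. Capitals mark bases that belong to a match of one of 4 motif cores, searched on both strands: NRF1 (GCATGCG), ETS (CCGGAAG), YY1 (AANATGG) and SP1 (GGGCGG).
Cox5b, chr1:36691237-36691486, plus strand: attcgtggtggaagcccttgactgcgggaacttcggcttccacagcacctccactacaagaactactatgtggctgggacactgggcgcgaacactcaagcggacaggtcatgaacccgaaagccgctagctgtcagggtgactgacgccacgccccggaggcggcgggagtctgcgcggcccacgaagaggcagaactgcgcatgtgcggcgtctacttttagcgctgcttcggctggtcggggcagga
Cox8a, chr19:7217617-7217866, minus strand: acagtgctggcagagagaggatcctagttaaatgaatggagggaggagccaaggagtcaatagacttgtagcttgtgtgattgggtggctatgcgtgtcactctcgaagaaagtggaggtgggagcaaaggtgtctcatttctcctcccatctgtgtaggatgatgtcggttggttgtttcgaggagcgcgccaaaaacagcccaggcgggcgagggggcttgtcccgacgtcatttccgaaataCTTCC
Sdhd, chr9:50603850-50604099, minus strand: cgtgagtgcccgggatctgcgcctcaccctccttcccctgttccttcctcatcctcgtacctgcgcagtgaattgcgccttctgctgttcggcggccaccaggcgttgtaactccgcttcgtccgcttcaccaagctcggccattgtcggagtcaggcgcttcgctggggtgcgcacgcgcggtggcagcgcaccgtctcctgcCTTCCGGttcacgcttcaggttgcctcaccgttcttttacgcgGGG
Ndufa11, chr17:56717512-56717761, plus strand: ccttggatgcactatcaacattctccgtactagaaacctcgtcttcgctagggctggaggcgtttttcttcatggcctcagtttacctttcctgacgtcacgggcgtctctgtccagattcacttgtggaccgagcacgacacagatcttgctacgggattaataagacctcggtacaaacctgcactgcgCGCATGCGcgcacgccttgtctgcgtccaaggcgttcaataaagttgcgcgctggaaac

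In *Ndufa11* the NRF1 core was read on both strands as overlapping matches that begin 59 and 58 bases before the start. *Sdhd* held an ETS core on the reverse strand 46 bases before the start and an SP1 core that begins 3 bases before it and runs past it. *Cox8a* held an ETS core on the reverse strand that begins 5 bases before the start, of which the first bases are shown, and another that begins 33 bases into the transcript. The window of *Cox5b* held none of the 4 letter strings, which says nothing of the factors. Over all member windows the NRF1 core was found in 15% of 80, compared with 3.58% of all 32851 windows and 5.78% of the 13159 windows of tested genes. The ETS core was found in 21.2% of the member windows, compared with 8.86% and 15.3%, and the YY1 core in 28.7%, compared with 16.1% and 14.2%. The SP1 core was found in 42.5%, compared with 35.7% and 60.3%. These are matches to letters and not sites of binding.

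The first question put to these genes was whether the loss of *Firre* altered their level. In neither sex did any of the 85 tested members pass the study's thresholds, a fold change above 1 in absolute log2 units together with an adjusted p below 0.01 (edgeR, DESeq2 called 0 as well). Nor did any reach an adjusted p under 0.05 without a limit on the fold change (edgeR). Of all tested genes, 0.0065% passed the study's thresholds in each sex, and 0.013% in female and 0.0065% in male MEFs passed the looser one. In female MEFs the median log2 fold change of the members was 0.04, with 73 positive and 12 negative (85.9% positive, compared with 57.6% of the genes of like abundance). This compares with medians of -0.00 for all tested genes and 0.02 for genes of like abundance. In male MEFs it was -0.01, with 34 positive and 51 negative, and its sign hung on single libraries (0.028 without male KO replicate 3 and 0.014 without male wild-type replicate 2). The largest differences were in complex IV, where *Cox5b* and *Cox8a* were higher in KO means of both sexes. For 77 of the 85 members in female and 79 in male MEFs the 95% confidence interval of the log2 fold change lay within -0.5 to 0.5. These intervals rest only on the spread between these libraries, and the bound is wide beside the median differences of the members.

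At an unadjusted p under 0.05 there were 14 members in female MEFs (16.5%, compared with 7.55% of all tested genes and 9.54% of those of like abundance) and 4 in male MEFs (4.71%, compared with 2.06%). In 28 members every female KO library was above every female wild-type library (32.9%, compared with 10.9% of all tested genes and 16.2% of those of like abundance), and in 1 it was the other way round (8.20% of all tested genes). In male MEFs the numbers were 5 (5.88%, compared with 2.78%) and 1 (2.52% of all tested genes). Among members the smallest edgeR adjusted p was 0.512 for the female and 1.0 for the male comparison. The 1 member lower in all male KO libraries was *Cox7c*. Epithelial markers summed to 24.9 to 64.1 CPM in female wild-type and 20.2 to 22 CPM in female KO libraries, and proliferation genes to 1153 to 1220 and 1214 to 1392 CPM. The log2 fold changes of the 6 proliferation genes were all positive in both sexes (medians 0.12 in female and 0.15 in male MEFs), and those of the fibroblast genes were negative for 7 of 8 in female and 6 of 8 in male MEFs (medians -0.14 and -0.04). The part of these lists in the KO values was not tested. The fold changes of the sexes had the same sign in 40 of 85 members (47.1%), compared with 56.2% of all tested genes and 58.4% of those of like abundance. The difference between the sexes in the KO effect was tested directly and passed for 0 of 85 members, as for 0% of all tested genes at either threshold, with 0 members at an unadjusted p under 0.05 (3.19% of all tested genes), and its median was 0.05 on the log2 scale, from 0.022 without male KO replicate 3 to 0.071 without male wild-type replicate 3. Besides *Cox7a1*, *Cox4i2* and *Atp5s*, the widest differences were those of the assembly factor *Ndufaf3* (0.20 in female, or 0.13 without female wild-type replicate 1, and -0.01 in male MEFs) and, on the other side, the accessory subunit *Ndufa5* (0.02 and 0.11). Averaged over the sexes, 0 members passed either threshold (0.0065% and, for the looser one, 0.0195% of all tested genes, 0.013% as higher), 10 members had an unadjusted p under 0.05 (11.8%, compared with 6.24%), and the smallest adjusted p was 0.487 (edgeR), that of *Cox5b*.

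**Figure D2:**
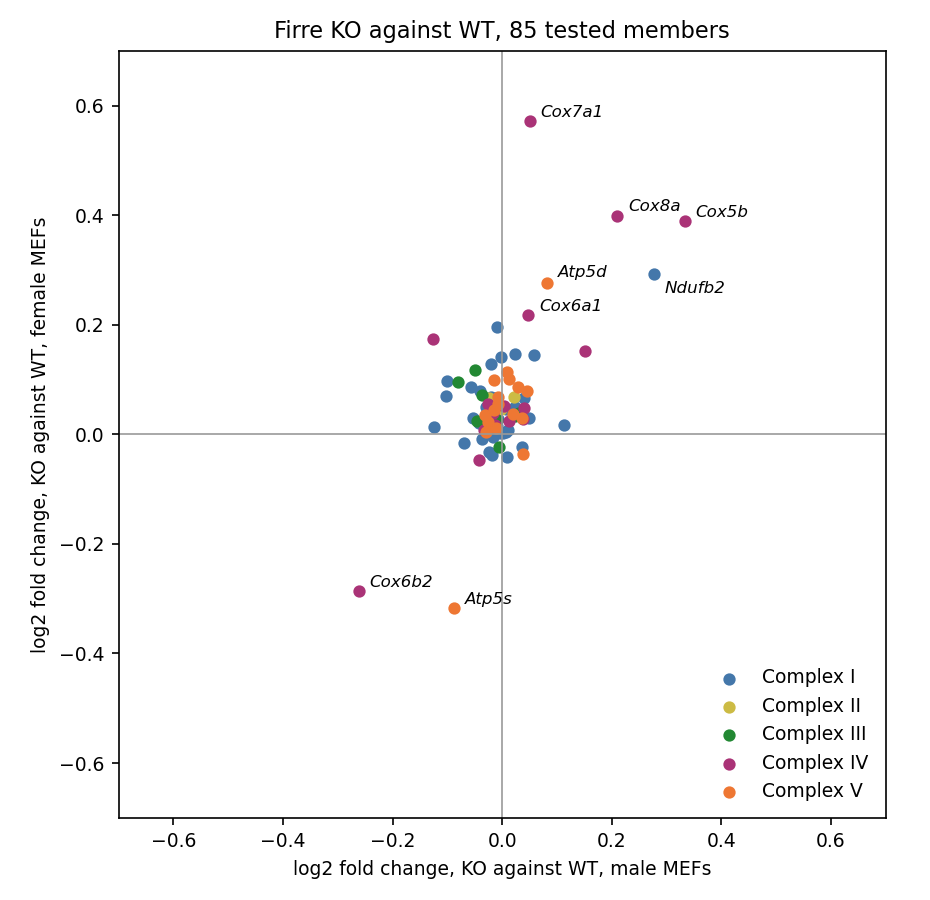
Log2 fold change of *Firre* KO against wild type in male (x axis) and female MEFs (y axis) for the 85 tested members, coloured by complex. Most points lie within 0.2 of zero on both axes, and *Cox5b*, *Cox8a* and *Ndufb2* are positive by more than 0.2 in both sexes, although without 1 library the male values of *Cox8a* and *Ndufb2* go down to 0.086 and 0.18; no point passed the thresholds.

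Complex I showed medians of 0.03 in female and -0.01 in male MEFs over its 40 tested genes. *Ndufb2* had 13.1, 12.8 and 14.3 CPM in female wild-type libraries 1 to 3 and 15.2, 15.7 and 18.3 CPM in the female KO libraries, and 15, 16.7 and 14.6 CPM in male wild-type and 19.2, 21.1 and 15.8 CPM in male KO libraries. The female groups did not overlap and the male groups did. Its female log2 fold change was 0.29 (SE 0.11) and its male one 0.28 (SE 0.11), with edgeR adjusted p of 0.592 and 1.0. Without male KO replicate 2 the male value was 0.18. The core subunits differed less. *Ndufv1*, which binds NADH, had log2 fold changes of 0.03 and -0.02, and *Ndufs1*, the largest iron-sulfur subunit, of 0.00 and -0.02. *Ndufb4* was at -0.12 in male MEFs, a value set by male KO replicate 3 (7.89 CPM against 11.6 and 11.1 CPM), and without that library it was 0.03.

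Complex II gave values within 0.07 of zero for all 4 subunits in both sexes. *Sdha*, the flavoprotein that oxidizes succinate, had at most 194 CPM in the female wild-type and at least 200 CPM in the female KO libraries. Its groups did not overlap, and its log2 fold change was 0.07 (SE 0.03) with an edgeR adjusted p of 0.638. In complex III the 8 genes ranged from -0.02 to 0.12 in female and from -0.08 to 0.03 in male MEFs, and 0 of 8 reached an unadjusted p under 0.05 in either sex. This holds for *Uqcrc1*, a core protein of the complex, at 0.07 and -0.04 and for *Uqcrfs1*, the Rieske iron-sulfur protein, at 0.04 and 0.03.

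Complex IV held the members with the largest differences. Over its 16 tested genes the median was 0.05 in female MEFs, with 14 positive and 2 negative, and 0.008 in male MEFs, with 9 and 7. *Cox5b*, a zinc-binding structural subunit on chromosome 1 from 36748332 to 36750230 (mm9, 4 merged exon blocks), had 56.5, 60.8 and 61.9 CPM in female wild-type and 71.0, 76.3 and 87.4 CPM in female KO libraries. In male MEFs it had 47.1, 52.8 and 44.5 CPM in wild-type and 63.3, 67.7 and 50.9 CPM in KO libraries. All female KO libraries were above all female wild-type libraries, whereas male KO replicate 3 lay between the male wild-type libraries. For the female comparison the log2 fold change was 0.39 (SE 0.11, unadjusted p = 0.00395, edgeR adjusted p = 0.512), and for the male one it was 0.33 (SE 0.11, adjusted p = 1.0). Its counts were fractional, so part of its reads were divided with other loci.

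*Cox8a*, a small membrane subunit on chromosome 19 from 7289648 to 7292106, had 79.5, 94.6 and 108 CPM in female wild-type and 121, 123 and 127 CPM in female KO libraries. The groups did not overlap, and the wild-type libraries were widely spread. In male MEFs the libraries had 91.7, 108 and 75.3 CPM in wild type and 113, 115 and 91.1 CPM in KO, and the groups overlapped. The log2 fold changes were 0.40 (SE 0.14) and 0.21 (SE 0.14), with edgeR adjusted p of 0.554 and 1.0. The male value was 0.086 without male wild-type replicate 3 and 0.35 without male wild-type replicate 2. *Cox5a*, another structural subunit, was the one complex IV gene whose groups did not overlap in either sex. It had 105, 112 and 107 CPM in female wild-type and 118, 114 and 128 CPM in female KO libraries, and 90.2, 93.8 and 91.4 CPM in male wild-type and 105, 104 and 96.7 CPM in male KO libraries. Its log2 fold change was 0.15 (SE 0.05) in each sex, with edgeR adjusted p of 0.543 and 1.0. Other complex IV genes had negative values or values near zero. *Cox7c* was at -0.05 in female and -0.04 in male MEFs, *Cox4i1* at 0.05 and 0.00, and the scarce *Cox6b2* at -0.29 (SE 0.19) and -0.26 (SE 0.18), with 1.74 to 3.16 CPM over the 12 libraries. For *Cox6b2* the female value was -0.18 without female wild-type replicate 3 or female KO replicate 2, and the male one -0.14 without male KO replicate 1 and -0.47 without male KO replicate 2. The female value of *Cox7c* was between -0.088 and -0.011 when 1 library was left out, the latter without KO replicate 1. The largest value of all, 0.57 for *Cox7a1* in female MEFs, came from levels under 0.7 CPM and had a 95% confidence interval of -0.54 to 1.69. Without female KO replicate 1 it was -0.0025.

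**Figure D3:**
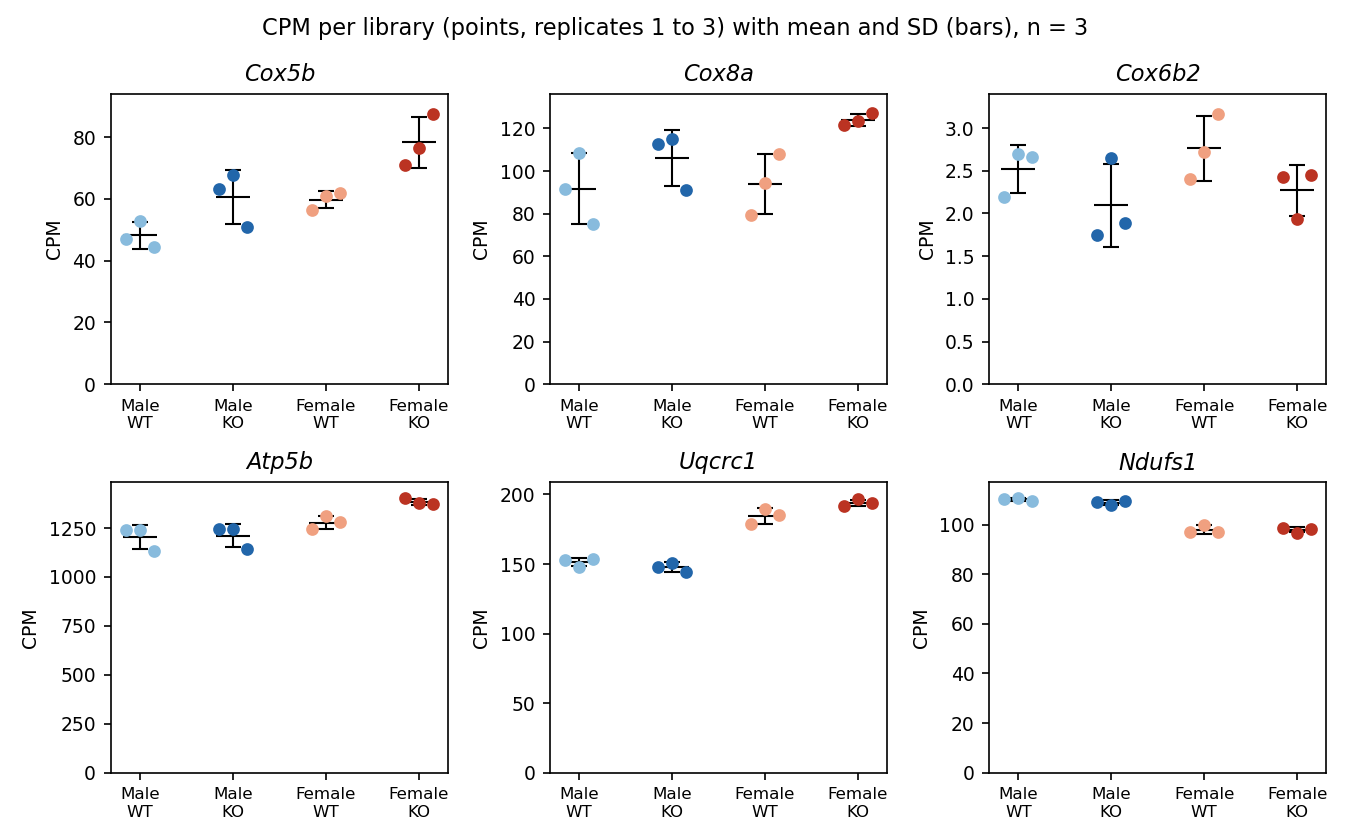
CPM per library of 6 members, with points for replicates 1 to 3 and bars for mean and SD (n = 3). Female KO libraries lie above female wild-type libraries for *Cox5b*, *Cox8a* and *Atp5b*, and the sexes separate for *Uqcrc1* (female higher) and *Ndufs1* (female lower).

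In complex V the median was 0.04 in female and -0.01 in male MEFs. *Atp5b* had 1243, 1313 and 1279 CPM in female wild-type and 1401, 1377 and 1374 CPM in female KO libraries, without overlap, and 1131 to 1238 CPM in male wild-type beside 1142 to 1246 CPM in male KO libraries. The female log2 fold change was 0.11 (SE 0.05, edgeR adjusted p = 0.624) and the male one 0.01 (SE 0.05, adjusted p = 1.0). *Atp5d*, the delta subunit, was at 0.28 (SE 0.10) in female MEFs with an edgeR adjusted p of 0.594. On the other side, *Atp5s*, which encodes a coupling factor B-like protein and not a subunit proper, had 5.91, 6.25 and 5.58 CPM in female wild-type and 4.87, 4.57 and 4.8 CPM in female KO libraries. It was the 1 member lower in all female KO libraries, at -0.32 (SE 0.10, edgeR adjusted p = 0.542), compared with -0.09 in male MEFs (-0.18 without male KO replicate 1).

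Summed over all members, the female KO libraries had 7924 to 8024 CPM and the female wild-type libraries 7471 to 7741 CPM, so these groups did not overlap. The male KO libraries had 6724 to 7195 CPM and the male wild-type libraries 6720 to 7183 CPM. Female KO means were above wild-type means for every complex, among them complex IV (1403 ± 20.2 against 1306 ± 31.7 CPM, SD, n = 3) and complex V (3585 ± 19.5 against 3379 ± 69.9 CPM). No test was made of a sum.

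**Figure D4:**
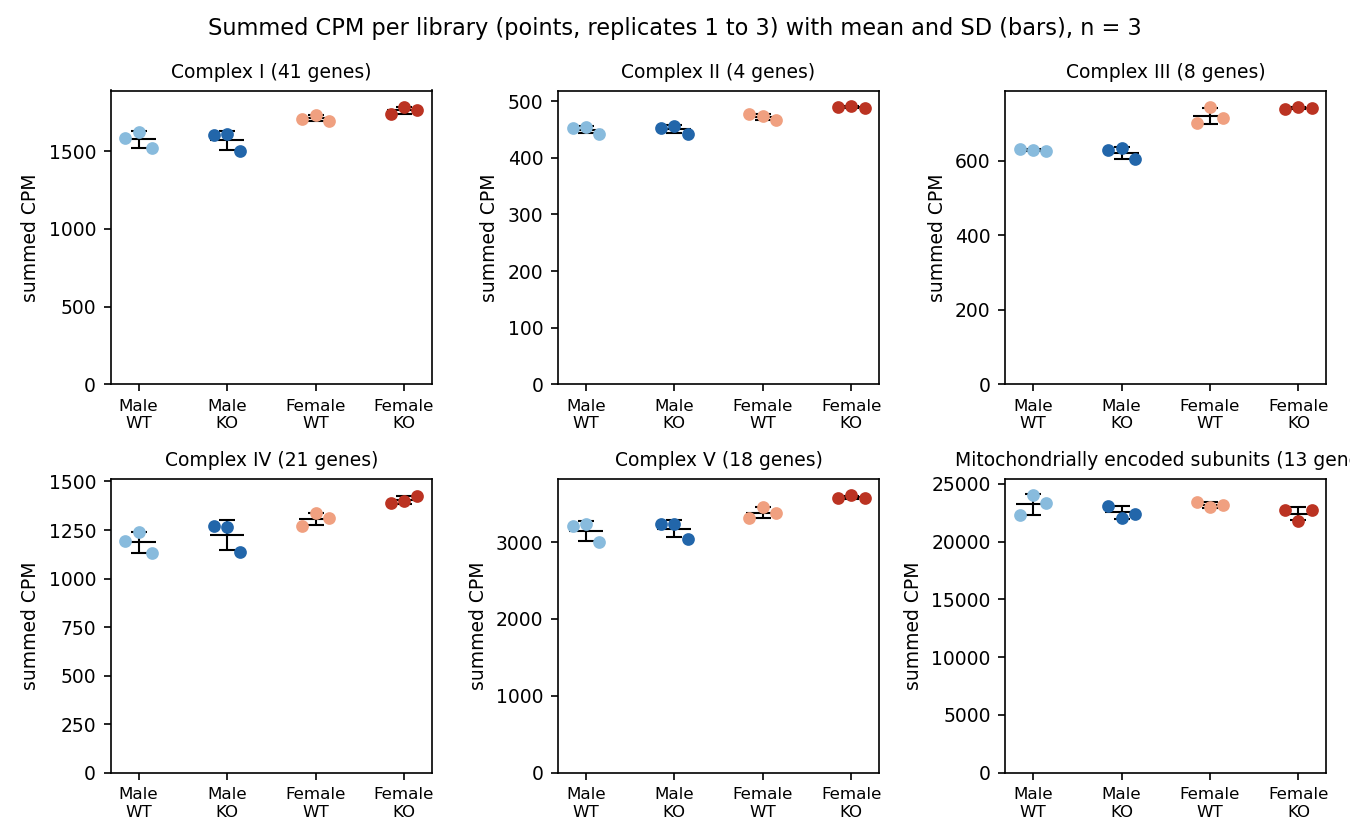
Summed CPM per library for the members of each complex and for the 13 mitochondrially encoded subunits, with points for replicates 1 to 3 and bars for mean and SD (n = 3). The sums of all 5 complexes are higher in every female than in every male library, narrowly so for complex IV, and those of the mitochondrially encoded genes overlap between the sexes but not between female wild-type and female KO libraries.

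The other genes of the pathway, from lists of fixed symbols, gave 0 called genes for the KO in either sex at either threshold (edgeR). The 13 mitochondrially encoded subunits summed to 22960 to 23400 CPM in female wild-type, 21780 to 22780 CPM in female KO, 22300 to 24050 CPM in male wild-type and 22050 to 23120 CPM in male KO libraries, so that every female KO library was below every female wild-type one while the male groups overlapped. Their log2 fold changes were negative for 12 of 13 in female and 13 of 13 in male MEFs, with medians of -0.06 and -0.05. Of all 15387 tested genes, 4514 were negative in both sexes. Genes of the same libraries are not replicates of each other, so these counts of signs are no test. At an unadjusted p under 0.05 (edgeR) there were 2 of 13 in female (7.55% of all tested genes) and 0 in male MEFs (2.06%). The largest fall was that of *mt-Nd3*, -0.14 in female MEFs (edgeR adjusted p = 0.543). For 24 tested assembly factors the medians were 0.02 in both sexes. For 7 tested genes of cytochrome c, adenine nucleotide and phosphate exchange and uncoupling they were 0.07 and -0.01, and for 13 regulators of mitochondrial transcription, among them *Nrf1*, *Gabpa*, *Esrra* and *Tfam*, -0.01 and 0.01.

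The second comparison was between the sexes. In wild-type MEFs 0 of 85 members passed the thresholds with a fold change limit, compared with 4.54% of all tested genes (edgeR, DESeq2 called 0 as well). At an adjusted p under 0.05, however, 37 members were higher in female than in male MEFs (43.5%, compared with 18.9% of all tested genes) and 2 were lower (2.35%, compared with 19.8%; 38.7% in either direction), with differences of at most 0.36 on the log2 scale among those called. In KO MEFs, which are separate libraries, 0 passed the study's thresholds (3.89% of all tested genes), while 49 were higher (57.6%, compared with 18.9%) and 1 was lower (1.18%, compared with 19.7%; 38.7% in either direction). In 45 members of wild type every female library lay above every male one (52.9%, compared with 25.5% of all tested genes) and in 5 below (5.88%, compared with 26.4%). In KO these were 60 (70.6%, compared with 24.5%) and 3 (3.53%, compared with 25.7%). At an unadjusted p under 0.05 there were 47 members in wild type (47.8% of all tested genes) and 55 in KO (47.9%). Of the 3144 genes of like abundance 20.5% were higher and 27.4% lower in wild type, and 721 were higher in KO. The median log2 fold change of the members was 0.13 in wild type and 0.17 in KO, compared with -0.01 and -0.00 for all tested genes. Of the 37 higher in wild type, 36 were also higher in KO MEFs (97.3% of the 37 and 73.5% of the 49), where the shares for all tested genes were 77.7% and 77.4%. Without both male libraries numbered 3, an alternative chosen after the data were seen, 34 members were higher in wild type and 51 in KO. Of 7 macrophage markers 6 were called higher in female wild-type and 7 in female KO MEFs, and of 11 skeletal muscle markers 8 and 9. Epithelial markers had a median difference of 3.41 in wild type, with 6 of 6 called higher, and of 1.25 in KO, with 1 of 6 called. Endothelial markers summed to 25 to 35 CPM in female and 17.1 to 21.9 CPM in male wild-type libraries, and to 24.9 to 31.7 and 19.6 to 23.4 CPM in KO. Neural markers summed to 662 to 706 CPM in female and 484 to 639 CPM in male wild-type libraries, and to 616 to 825 and 468 to 552 CPM in KO. The 8 fibroblast genes had a median log2 fold change of -0.40 in wild type and -0.41 in KO, with 2 and 3 called lower and, in KO, 1 called higher. The part of these lists in the difference was not tested. Sex, embryo and depth cannot be told apart in these groups.

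**Figure D5:**
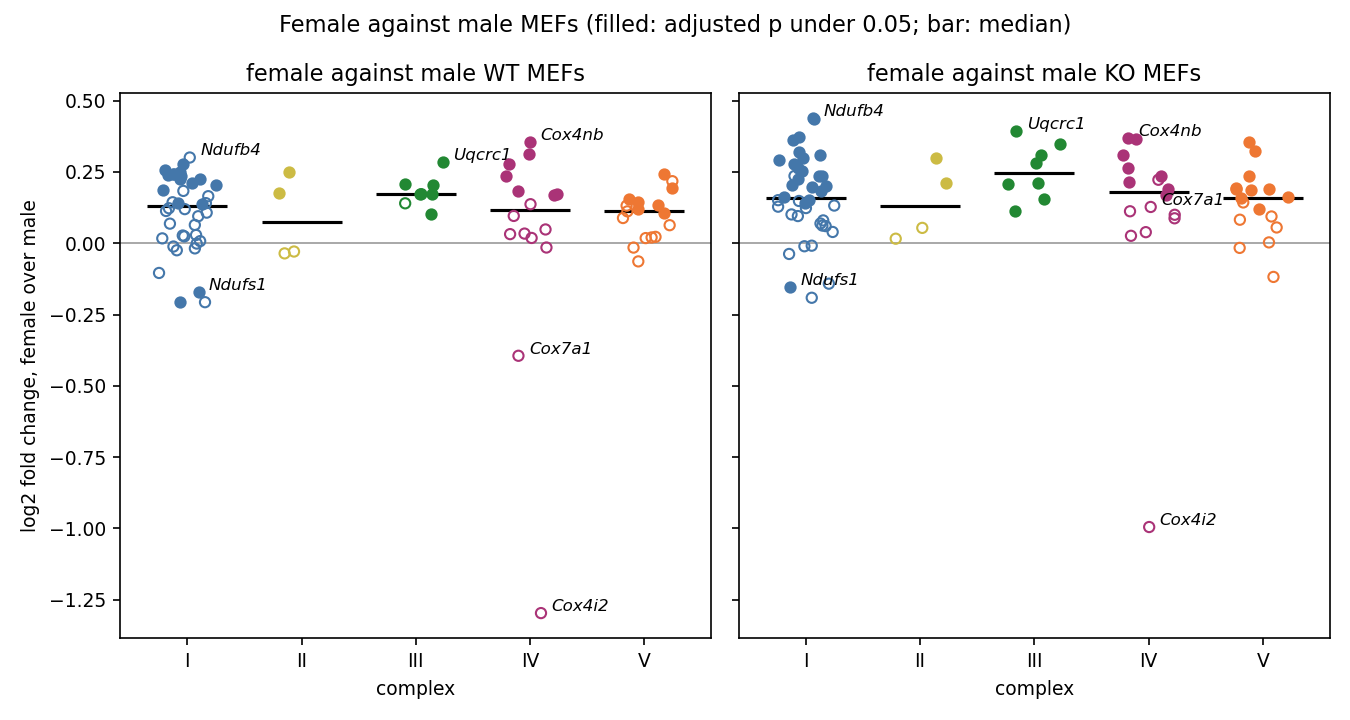
Log2 fold change of female against male MEFs in wild-type (left) and KO libraries (right) for the tested members of each complex, with filled points for an adjusted p under 0.05 and a bar for the median. Medians are positive in all 5 complexes in both genotypes, all 8 complex III genes are filled in KO MEFs (with *Uqcrh* losing the call on omission of single libraries), and *Cox4i2* lies far below zero at a very low level without passing the test.

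By complex, higher members numbered 15 of 40 in complex I, 2 of 4 in complex II, 6 of 8 in complex III, 7 of 16 in complex IV and 7 of 17 in complex V in wild-type MEFs. In KO MEFs they numbered 21, 2, 8, 8 and 10. The complex IV counts include *Cox4nb*, which is not a subunit of that complex. Among the 77 tested subunits of all complexes, 36 were higher in wild type (46.8%) and 48 in KO (62.3%). Beside these counts stand the 18.9% of all tested genes that were higher in each genotype, and the 19.8% in wild type and 19.7% in KO that were lower. Of the 7 core subunits of complex I, 4 were higher and 1, *Ndufs1*, was lower in wild type, and 6 were higher and *Ndufs1* again lower in KO. *Ndufs1*, on chromosome 1 from 63190170 to 63223396, had 96.8 to 99.9 CPM over the 6 female and 108 to 111 CPM over the 6 male libraries. No female library reached a male one. It fell by 0.17 (SE 0.03, edgeR adjusted p = 0.00118) on the log2 scale in wild type and by 0.15 (SE 0.03, adjusted p = 0.00236) in KO, and its counts were fractional. The other member lower in female wild-type MEFs was the assembly factor *Ndufaf1*, at -0.21 (SE 0.06, edgeR adjusted p = 0.0221), a call lost without male replicate 3 or any 1 of the female replicates. By contrast *Ndufv1* was higher by 0.22 (SE 0.04, edgeR adjusted p = 9.3e-04) in wild type and by 0.28 (SE 0.04, adjusted p = 2.6e-04) in KO.

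*Ndufa11*, an accessory subunit of the membrane arm, had the second largest positive difference in KO MEFs among the members. It had 43.5, 42.9 and 44.1 CPM in female KO libraries and 33.7, 34.7 and 28.0 CPM in male KO libraries, without overlap. The log2 fold change was 0.44 (SE 0.07, edgeR adjusted p = 0.00115), and in wild type it was 0.24 (SE 0.07, adjusted p = 0.0253). *Ndufb4* was at 0.44 (SE 0.12, adjusted p = 0.0160) in KO and at 0.30 (SE 0.12, adjusted p = 0.0738) in wild type (edgeR). Its KO value was 0.28 without male KO replicate 3, where it remained called (adjusted p = 0.0154), and the call was lost without female KO replicate 3 (0.40, adjusted p = 0.0558). The wild-type call of *Ndufa11* was lost without male replicate 3 or any 1 of the female replicates (adjusted p from 0.053 to 0.0818).

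Of the subunits of complex II, the membrane anchor *Sdhd* and the iron-sulfur subunit *Sdhb* were higher in female MEFs, while *Sdha* and *Sdhc* did not pass the test. *Sdhd* had 110, 108 and 108 CPM in female and 91.1, 90.0 and 93.9 CPM in male wild-type libraries, a difference of 0.25 (SE 0.03, edgeR adjusted p = 1.8e-04), and 112, 114 and 112 CPM in female and 90.2, 92.7 and 91.7 CPM in male KO libraries, a difference of 0.30 (SE 0.03, adjusted p = 6.2e-05). *Sdhb* was at 0.18 in wild type and 0.21 in KO (SE 0.04 in each). *Sdha* was at -0.03 (SE 0.03) in wild type, with 194, 194 and 188 CPM in female and 198, 196 and 194 CPM in male libraries, which overlapped.

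In complex III all 8 genes were higher in female means of both genotypes, from 0.10 to 0.28 in wild type and from 0.11 to 0.39 in KO. *Uqcrc1*, on chromosome 9 from 108838661 to 108851685 (mm9, 13 merged exon blocks), had 179, 190 and 185 CPM in female and 153, 148 and 154 CPM in male wild-type libraries. In KO MEFs it had 192, 196 and 194 CPM in female and 148, 151 and 144 CPM in male libraries. The sexes did not overlap in either genotype, with log2 fold changes of 0.28 (SE 0.04, edgeR adjusted p = 1.7e-04) and 0.39 (SE 0.04, adjusted p = 2.8e-05). *Uqcrfs1* was at 0.21 in both genotypes. The 2 complex III genes not called in wild type were *Uqcr11* (0.14, or 0.090 without male replicate 3, edgeR adjusted p = 0.169) and *Uqcrq* (0.17, adjusted p = 0.0968), which was called without female replicate 1 (0.24, adjusted p = 0.0319). In KO the call of *Uqcrh* (edgeR adjusted p = 0.0261) was lost without female replicate 1 or 3 or male replicate 2 or 3 (adjusted p from 0.0608 to 0.083), and its wild-type call on omission of any library but male replicate 2.

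In complex IV *Cox5b* was higher in female MEFs, by 0.31 (SE 0.11, edgeR adjusted p = 0.0401) in wild type and 0.37 (SE 0.11, adjusted p = 0.0193) in KO, as were *Cox5a* at 0.23 and 0.24 and *Cox4i1* at 0.17 and 0.22. The wild-type call of *Cox5b* was lost on omission of any library but male replicate 2, and its KO call without female replicate 3 (0.28) or male replicate 3 (0.25). That of *Cox4i1* in wild type was lost without male replicate 3 or any 1 of the female replicates. The largest positive difference in wild type among the 85 genes was that of *Cox4nb*, the gene that is no part of the complex, with 51.6, 53.6 and 51.6 CPM in female and 40.7, 39.8 and 42.1 CPM in male libraries (0.36, SE 0.04, edgeR adjusted p = 6.1e-05). It lies head to head with *Cox4i1* on chromosome 8, from 123177814 to 123192012 on the minus strand. *Cox4i2* had the lowest values, -1.30 (SE 0.51) in wild type and -1.0 in KO, at 0.0429 to 0.290 CPM, and did not pass the test. Without male wild-type replicate 1 the wild-type value passed (-1.58, edgeR adjusted p = 0.0402), and without female KO replicate 2 the KO value was -0.64. In complex V *Atp5a1*, the alpha subunit, was at 0.11 and 0.16 and was called in both genotypes. The wild-type call (edgeR adjusted p = 0.0484) was lost on omission of any 1 of the 6 libraries, with a value of 0.067 without male replicate 3. The beta subunit *Atp5b* was at 0.09 (SE 0.05, edgeR adjusted p = 0.160) in wild type and 0.19 (SE 0.05, adjusted p = 0.00796) in KO, and the wild-type value was 0.045 without male replicate 3.

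The 3 members on the X chromosome, *Ndufa1* and *Ndufb11* of complex I and *Cox7b* of complex IV, did not pass the test in either genotype. *Cox7b* had 88.6, 91.7 and 88.3 CPM in female and 87.0, 87.1 and 88.5 CPM in male wild-type libraries, a difference of 0.03 (95% confidence interval -0.04 to 0.11). For *Ndufb11* the interval in wild type was -0.04 to 0.17 and for *Ndufa1* it was -0.13 to 0.16. The intervals of *Ndufa1* and *Ndufb11* also include 0.13, the median over all members, so a difference of that size was not excluded for them at this depth.

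The other lists of the pathway gave the following counts between the sexes at an adjusted p under 0.05, where 18.9% of all tested genes were higher and 19.8% (wild type) or 19.7% (KO) lower. Among the 13 mitochondrially encoded subunits, 1 was higher (*mt-Nd1*, 0.26, edgeR adjusted p = 0.00156) and 3 were lower (*mt-Atp8*, *mt-Nd5* and *mt-Nd6*) in female wild-type MEFs, with a median of -0.03 (1 higher and 2 lower in KO). Of the 24 tested assembly factors, 6 were higher and 2 lower in wild type (25% and 8.33%) and 6 higher and 0 lower in KO. Of the 7 exchange and uncoupling genes, 4 were higher in wild type and 6 in KO, among them *Slc25a5*, an adenine nucleotide translocator, and *Cyc1*, the cytochrome c1 subunit of complex III that the symbol rule does not reach. *Ucp2*, an uncoupling protein known from macrophages, differed between wild-type means of 5.21 CPM (female) and 1.81 CPM (male) (1.53, SE 0.42, edgeR adjusted p = 0.0146). In KO its difference was 1.80 (SE 0.43, edgeR adjusted p = 0.00707), and it was the 1 gene of the list past the study's thresholds there. Of the 13 regulators, 1 was lower in wild type (*Polrmt*) and 1 higher in KO (*Esrra*).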

How the data were processed

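RNA-seq of 12 MEF libraries in 4 groups of 3 was analysed; groups follow the labels. The authors deposited estimated counts per gene (RSEM expected counts): total RNA was sequenced from TruSeq v2 libraries and reads were aligned with Bowtie 2 to mm9, and the submitters' processing notes name RSEM 1.2.29. Between 14.7% and 16.8% of the values of a library were fractional, and all were rounded to whole numbers before testing. Chromatin contact maps were not used here.

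Genes were filtered with filterByExpr, scaled by TMM and tested with the quasi-likelihood test of edgeR 4.0.16 (R 4.3.3) in one fit of 12 libraries with 4 group means. Adjusted p is Benjamini-Hochberg over 15387 genes. DESeq2 1.42.0 was an alternative, as were other scalings, filters, sample sets, a replicate block and the omission of each library. The edgeR procedure was run on counts simulated with large changes between female KO and wild-type libraries. That run does not cover the small differences or the looser threshold reported here. Approximate TPM used the merged exon length. A floor of 3 counts was used, 0.0458 to 0.0698 CPM by library total, and it covers counting error only. The 95% confidence intervals of fold changes come from the edgeR fit.

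The members and lists were chosen with earlier results of these data known. Genes were named by rule: the highest and lowest tested member per complex, the 3 largest differences in each direction of each comparison, X-linked members, isoform families and a fixed core of 10 subunits. *Atp5d*, *Uqcr11*, *Uqcrh*, *Ndufaf1* and the pathway genes named outside the members were chosen after their values were seen.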

Additional observations from a re-analysis of the deposited data

How the results depend on the processing

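With the study's thresholds 0 members were called in each of the 6 comparisons under every alternative run. Without a limit on the fold change, at an adjusted p under 0.05 (edgeR), 39 members were called between the sexes in wild type and 50 in KO. Restricted to members with whole counts, 21 and 30 were higher, of fewer members tested. Leaving out 1 library at a time gave 25 to 37 higher members in wild type and 36 to 47 in KO, and 23 of the 37 and 35 of the 49 kept the call in every alternative. The median KO change in female MEFs ranged from 0.037 to 0.056 over the omissions, the last without female wild-type replicate 2. The median level was 130.7 TPM with the longest transcript as the length.

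Directions of some uncalled values turned. Over the omissions of 1 library, *Cox4i2* ranged from -0.45 to 0.18 for the male KO and from -0.018 to 0.66 for the difference between the sexes, *Cox7a1* from -0.0025 to 0.92 for the female KO and from -0.053 to 0.87 for the difference, and *Atp5sl* from -0.14 to 0.021 for the difference. *Ndufb4* ranged from -0.23 to 0.030 for the male KO and from -0.11 to 0.022 for the average. Between the sexes in wild type, *Ndufa1* ranged from -0.033 to 0.047 and *Sdhc* from -0.089 to 0.0079. Without both male libraries numbered 3, chosen after the data were seen, *Ndufb4* was at 0.027 for the male KO and 0.018 for the average and *Ndufa1* at -0.033. With no filter *Sdha* was at -0.0015 between the sexes in KO. The cause was not tested.

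Replicate numbers gave correlations from -0.164 to 0.333 over 12 same-numbered pairs, with 3 above 0.1, so the numbers were not taken to pair the samples. The male wild-type and KO libraries gave 0.097, 0.216 and 0.333. With the replicate block 0 members were called for the KO, and 38 and 51 members were higher in female MEFs in wild type and KO. In 3 of the 12 pairs the correlation with the own number was the best, among them male wild-type and KO replicates 2 and 3. The block sets the same replicate effect for both sexes, so it cannot show a pairing of the male libraries alone. Such a pairing was not tested.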
